A study of Homo sapiens with 6 samples.

Results

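Ephrins and Eph receptors were examined in REH, an established line of human B-cell precursor acute lymphoblastic leukemia with the ETV6/RUNX1 translocation. The members were 10 genes, namely the ephrin ligands EFNA1, EFNA3, EFNA4, EFNB1 and EFNB2 and the receptors EPHA7, EPHB2, EPHB3, EPHB4 and EPHB6. Each was represented by the Agilent catalogue probes whose RefSeq transcript belongs to that gene, which gave 14 probes of 34134 catalogue probes and of 57176 probes in all. The genes were chosen by their knockdown against control values on these same arrays, so those differences are given for them as a description and support nothing further.

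Expression was measured in 6 RNA samples on one-color arrays. In the control group, 3 samples of REH cells carried a short hairpin RNA (shRNA) labelled as non-targeting. In the knockdown group, 3 samples carried an shRNA against the ETV6/RUNX1 fusion. All 6 samples shared the cell line, its fusion and, as the study describes REH, the loss of the other ETV6 allele. Per the study's methods they also shared lentiviral delivery from a vector that encodes green fluorescent protein and sorting for that protein. Each group rests on 1 hairpin in 1 cell line, and the methods describe the control hairpin as an ETV6 hairpin that does not hit the fusion transcript.

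Eph proteins are receptor tyrosine kinases that are activated by ephrins on the surface of a neighbouring cell. A-type ephrins are held in the membrane by a lipid anchor and B-type ephrins cross it, and each type binds mainly the receptors of the same letter. Signals run forward into the cell with the receptor and in reverse into the cell with the ligand, and are best known for guiding adhesion, repulsion and migration. Blood cells and their precursors also express members of both groups.

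The median spot read between 66 and 75 in raw intensity on the 6 arrays, and the median negative control spot between 42.25 and 48. Of 57176 probes, 27490 were retained above the negative controls, and limma called 478 of them at an adjusted p under 0.05, 352 lower and 126 higher in knockdown. Under scaling to the spike-in controls, the median of all probes shifted to 0.39 (log2) and the split was 230 lower and 679 higher. ETV6, the part of the fusion that the hairpin is directed against, was measured with probe A_33_P3356325, with log2 values of 7.92, 8.05 and 8.37 in control and 7.50, 7.46 and 7.29 in knockdown. All knockdown arrays lay below all control arrays, although the probe was not called (log2 fold change -0.70, SE 0.14, limma adjusted p = 0.0512). A second ETV6 probe was too dim to be retained, and where the probes lie relative to the fusion point was not analysed here. The study itself reports silencing of the fusion in REH cells, with western blot and RT-qPCR, which were not re-analysed here. Of 10 marker genes of B-cell precursors, 9 were well above background on all 6 arrays, VPREB1 being the exception.

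EFNA1, EPHB3 and EPHA7 were lower after knockdown, by 4.88-fold, 4.06-fold and up to 1.82-fold, and the other 7 genes were not called in either direction. Of 14 member probes, 12 were retained, with at least 1 probe for each gene, and 3 of these 12 were called. All 3 were lower in knockdown, namely EFNA1, EPHB3 and 1 of 2 EPHA7 probes. Over all retained probes, 1.28% were called lower and 0.458% higher, 1.74% in all. In 4 member probes every knockdown array lay below every control array, in 1 every knockdown array lay above, and in 7 the groups overlapped, while 9.84% and 9.06% of all retained probes had such gaps below and above, 18.9% in all. Nothing about the family is read from these shares, because the members were picked with the contrast known. In these bulk samples, fewer cells with a transcript and less transcript per cell cannot be told apart.

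**Figure D1:**
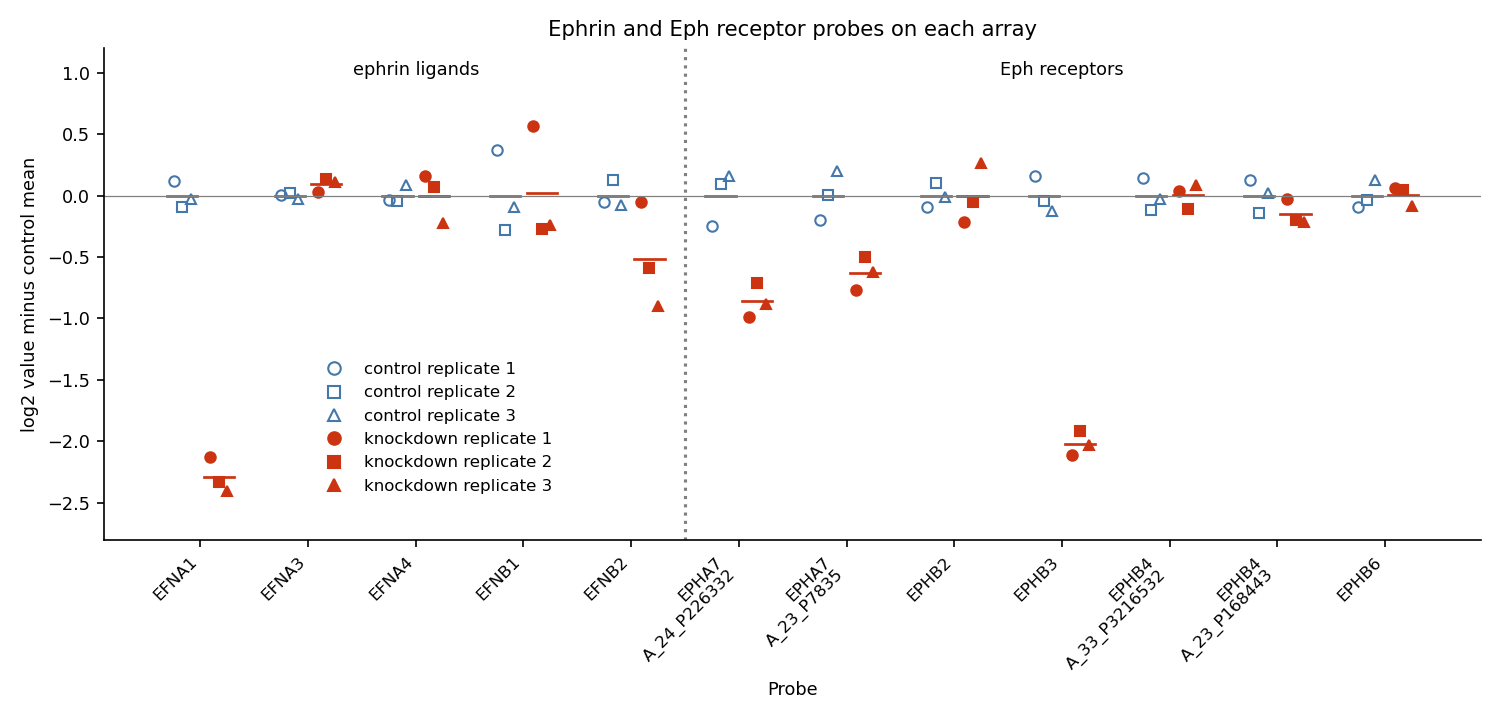
Values of the 12 retained member probes on each of the 6 arrays, as log2 value minus the mean of the 3 control arrays of that probe (y axis), by probe (x axis). Open blue symbols are control arrays, filled red symbols knockdown arrays, symbol shapes mark the replicate number and bars the group means. EFNA1 and EPHB3 lie about 2 log2 units below their controls on all 3 knockdown arrays, both EPHA7 probes lie less far below, and EFNB1 and EFNB2 show the widest spread.

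First, the A-type ligands were considered. EFNA1 encodes ephrin-A1, a lipid-anchored ligand of the EphA receptors. Its probe A_23_P113005, designed on NM_004428 and printed on 5 spots per array, measured 10.30, 10.09 and 10.15 on the log2 scale in control replicates 1 to 3 and 8.05, 7.84 and 7.78 in knockdown replicates 1 to 3. The groups were separated by 2.03 between the lowest control and the highest knockdown array, which is far wider than the spread within either group. Group means were 10.18 ± 0.11 (SD, n = 3) and 7.89 ± 0.14, so that EFNA1 was 4.88-fold lower in knockdown (log2 fold change -2.29, 95% confidence interval -2.55 to -2.02, limma adjusted p = 0.000239). Raw spot intensity fell from between 1216 and 1353 to between 222 and 350, still well above background on every array. By size of decrease, the probe stood at rank 14 among 21598 retained catalogue probes.

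EFNA3 and EFNA4 encode the A-type ephrins whose genes lie next to EFNA1 on chromosome 1. The EFNA4 probe A_23_P322 read 10.86, 10.84 and 10.97 in control and 11.05, 10.96 and 10.67 in knockdown. The groups overlapped and their means agreed within the spread between replicates (log2 fold change 0.00, 95% confidence interval -0.28 to 0.28). For EFNA3, probe A_24_P114032 read 6.62, 6.64 and 6.59 in control and 6.65, 6.75 and 6.73 in knockdown. All 3 knockdown arrays lay above the controls, but by a gap of only 0.01, and the probe was not called (log2 fold change 0.09, 95% confidence interval -0.12 to 0.30, limma adjusted p = 0.731). RefSeq also lists an EFNA4-EFNA3 readthrough gene there, so the signal of either gene's probe may include its transcript.

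Next, the B-type ligands were considered. EFNB2 encodes ephrin-B2, a transmembrane ligand best known from the vessel wall. Its probe A_24_P355944 measured 11.51, 11.69 and 11.49 in control and 11.51, 10.97 and 10.66 in knockdown. Knockdown replicate 1 lay within the control range and the other two lay below it. The log2 fold change was -0.51 (SE 0.20, 95% confidence interval -0.98 to -0.05), and the probe was not called (limma adjusted p = 0.341). Without knockdown replicate 1 the difference was -0.74 and the probe was called (adjusted p = 0.0412).

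EFNB1 encodes ephrin-B1, likewise a transmembrane ligand. Its probe A_24_P365807 read 12.38, 11.74 and 11.92 in control and 12.58, 11.74 and 11.78 in knockdown. Replicate 1 was the highest array in both groups, and the groups overlapped throughout. The log2 fold change of 0.02 therefore came with a wide 95% confidence interval of -0.57 to 0.60, the widest among the member probes. Without knockdown replicate 1 it was -0.26, and without control replicate 1 it was 0.21, and neither was called.

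Turning to the receptors, EPHB3 was the member with the second clear decrease. EPHB3 is a B-type receptor kinase known for positioning cells in the intestinal crypt. Probe A_23_P95060, designed on NM_004443, measured 9.20, 9.00 and 8.92 in control and 6.92, 7.12 and 7.01 in knockdown. A gap of 1.79 separated the groups, and each knockdown array was lower than its same-numbered control, with differences of -2.28, -1.87 and -1.91 on the log2 scale. Group means were 9.04 ± 0.15 (SD, n = 3) and 7.02 ± 0.10, a level 4.06-fold lower in knockdown (log2 fold change -2.02, 95% confidence interval -2.28 to -1.76, limma adjusted p = 0.000365). Its raw intensity was 526 to 574 in control and 136 to 155 in knockdown, and its decrease stood at rank 20 among the catalogue probes.

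EPHA7, an A-type receptor kinase known from the developing nervous system, was covered by 2 probes designed on the same transcript. A_24_P226332 read 9.12, 9.46 and 9.52 in control and 8.38, 8.66 and 8.48 in knockdown. A_23_P7835 read 7.74, 7.94 and 8.14 in control and 7.17, 7.44 and 7.32 in knockdown. In both probes all knockdown arrays lay below all control arrays, with gaps of 0.46 and 0.30, and replicate 1 was the lowest of each group. The first differed by -0.86 (log2, SE 0.14) and was called (limma adjusted p = 0.0230), while the second differed by -0.63 (SE 0.13, adjusted p = 0.0669). The second was called once the replicate number was fitted as a block (adjusted p = 0.0265, with 3.78% of all retained probes called in that fit) and when both probes were averaged (adjusted p = 0.0374).

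Both EFNA1 and EPHB3 were called in each of 18 alternative settings, but the EPHA7 call depended on the arrays and on the processing. The call of A_24_P226332 was lost without control replicate 2 (adjusted p = 0.118), without control replicate 3 (0.0879) and without either knockdown replicate 2 (0.0594) or 3 (0.108), while its log2 fold change stayed between -0.99 and -0.78. The call also failed with a term for slide row (log2 fold change -1.02, adjusted p = 0.0869), with scaling of the processed signal to its 75th percentile (-0.94, 0.0715) and with no filter on dim probes (-0.86, 0.0761), where the difference was no smaller. It failed with spike-in scaling as well (-0.59, 0.182). Under that scaling the median of all probes was 0.39, and relative to it the probe A_24_P226332 stood at -0.97. In each of the 18 alternatives both EPHA7 probes were lower in knockdown.

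EPHB2, EPHB4 and EPHB6 gave values near their control level. EPHB4, the receptor usually paired with ephrin-B2 in vessels, had 2 probes, each with overlapping groups. A_33_P3216532 read 10.86, 10.60 and 10.70 in control and 10.75, 10.61 and 10.80 in knockdown, with a 95% confidence interval of the log2 difference from -0.25 to 0.26. A_23_P168443 read 9.31, 9.04 and 9.20 against 9.16, 8.98 and 8.97, with an interval from -0.40 to 0.11. Neither was called, with limma adjusted p of 0.993 and 0.652.

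EPHB6 belongs to the family by sequence but its kinase domain is catalytically inactive. Its probe A_23_P145935 read 8.68, 8.73 and 8.89 in control and 8.83, 8.81 and 8.68 in knockdown, and the interval of the difference was -0.23 to 0.25. For EPHB2, a B-type receptor also expressed on lymphocytes, A_33_P3370787 read 6.87, 7.06 and 6.95 in control and 6.75, 6.90 and 7.22 in knockdown, with an interval from -0.32 to 0.32. Both probes overlapped between the groups and were not called (limma adjusted p = 0.982 and 0.997). The other two EPHB2 probes were near background and were not retained.

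**Figure D2:**
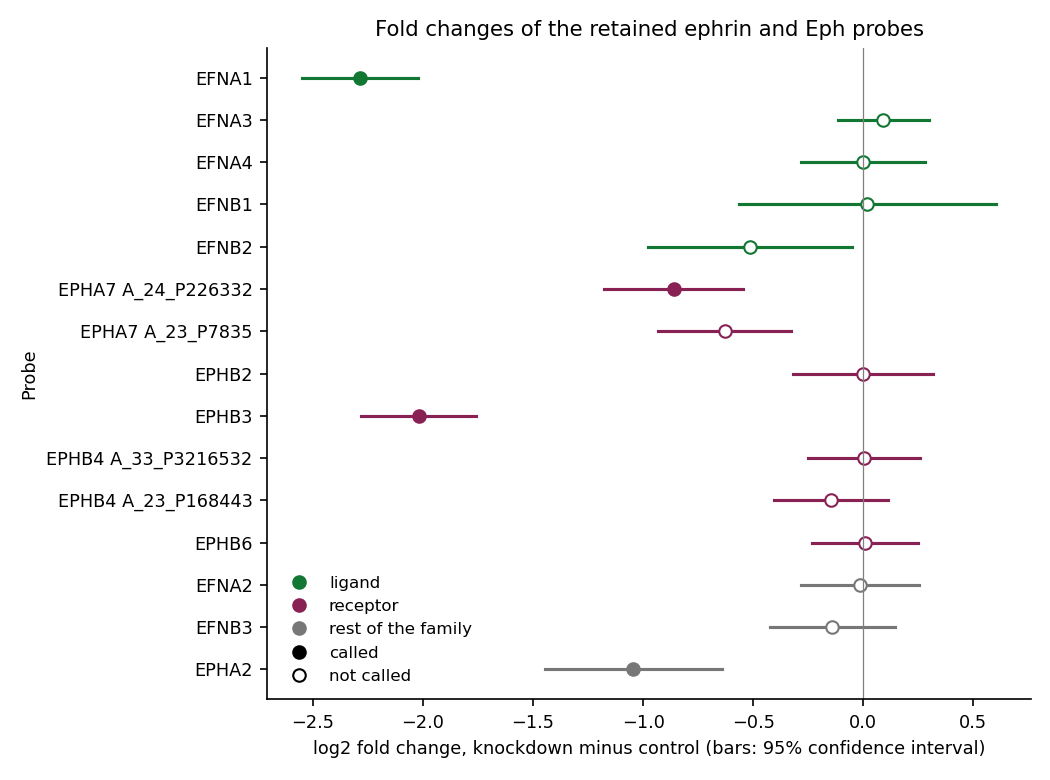
Log2 fold change, knockdown minus control (x axis), of the 15 retained probes of the ephrin and Eph family (y axis), with 95% confidence intervals from limma. Filled symbols are called probes: EFNA1 at -2.29, EPHB3 at -2.02, an EPHA7 probe at -0.86 and EPHA2, which was well above background on only 1 knockdown array and so has no firm size there, whereas most of the open symbols lie near 0.

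Ligands and receptors were then compared with each other. Of 5 ligand probes 1 was called, and of 7 retained receptor probes 2 were, beside 1.74% of all retained probes, and nothing is read from these counts of chosen genes. The median log2 fold change was 0.00 over ligand probes and -0.15 over receptor probes, beside -0.00045 over all retained catalogue probes. The receptor median lay closer to 0 in some alternatives, at -0.027 in the deposited table, -0.037 with no filter on dim probes and -0.072 with the probes of a gene averaged. On single arrays, the mean deviation of the ligand probes from their control means was -0.29, -0.60 and -0.73 in knockdown replicates 1 to 3. For the receptor probes it was -0.57, -0.49 and -0.50. The ligand mean was thus less lowered than the receptor mean in replicate 1 and more lowered in replicates 2 and 3, and the differences between them, 0.29, -0.11 and -0.23, lay on both sides of 0.

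Most of either mean came from its few lowered genes. Without EFNA1, the ligand means in knockdown were 0.17, -0.17 and -0.31. Without EPHB3 and EPHA7, the receptor means were -0.04, -0.08 and 0.01. Control arrays gave differences between ligands and receptors of 0.11, -0.03 and -0.08, so the knockdown arrays fell on both sides of the control range. The difference between the classes was not tested, as the members were picked with these values known.

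**Figure D3:**
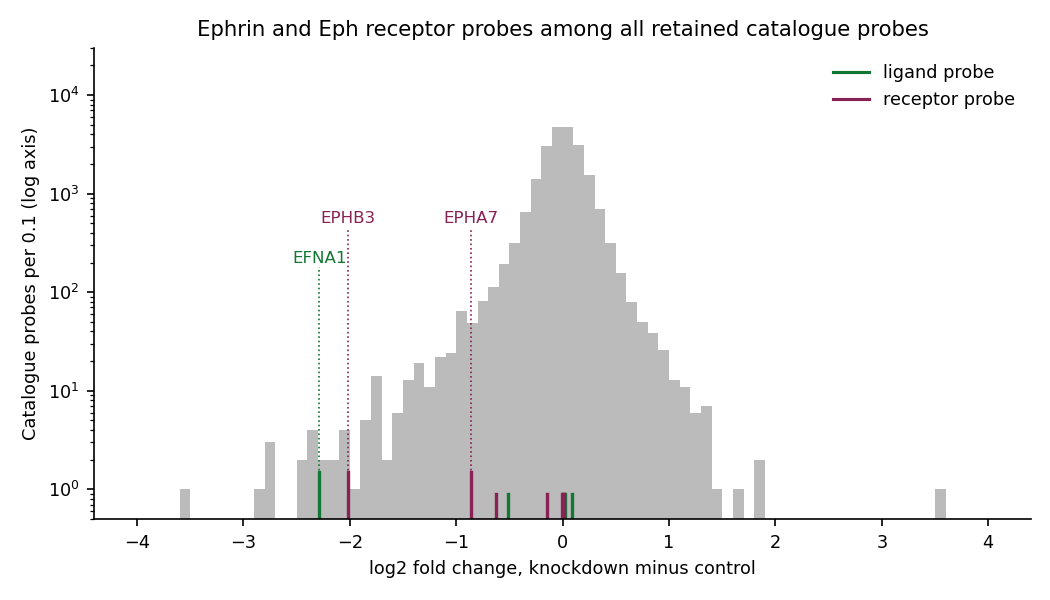
Number of retained catalogue probes per 0.1 of log2 fold change (grey bars, logarithmic y axis), with the 12 member probes marked on the x axis in green (ligands) and purple (receptors). EFNA1 and EPHB3 lie in the thin lower tail at -2.29 and -2.02, EPHA7 at -0.86, and the 5th and 95th percentiles of all 21598 probes are -0.38 and 0.34.

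The remaining 12 human ephrin and Eph genes were counted apart. They had 17 catalogue probes, of which 3 were retained, for EFNA2, EFNB3 and EPHA2, and 7 of the 12 genes were not well above background on any array. EPHA2, a receptor for ephrin-A1 that many epithelial cells express, measured 6.94, 6.49 and 6.49 in control and 5.87, 5.34 and 5.57 in knockdown. All knockdown arrays lay below all control arrays, and the probe was well above background on 3 control arrays but on only 1 knockdown array. It passed the filter through the control group, being over the threshold on 3 control arrays and 1 knockdown array. It was called among the retained probes (log2 fold change -1.04, SE 0.17, limma adjusted p = 0.0277) but not with no filter on dim probes (adjusted p = 0.0905). With raw intensities of 105 to 132 in control and 57.5 to 81 in knockdown it was dim, and its size depended on the normalization, from -0.58 with normexp and quantile normalization to -2.13 with scaling of the processed signal.

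The EPHA2 call was lost in 10 of 18 alternatives. Among single arrays left out, it was kept without knockdown replicate 1 (adjusted p = 0.0176) and lost without control replicate 1 (0.0637), 2 (0.0855) or 3 (0.0660) and without knockdown replicate 2 (0.107) or 3 (0.127). The probe was lower in knockdown in each of them. EFNA2 and EFNB3 overlapped between the groups, with log2 fold changes of -0.01 and -0.14 and neither was called.

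**Figure D4:**
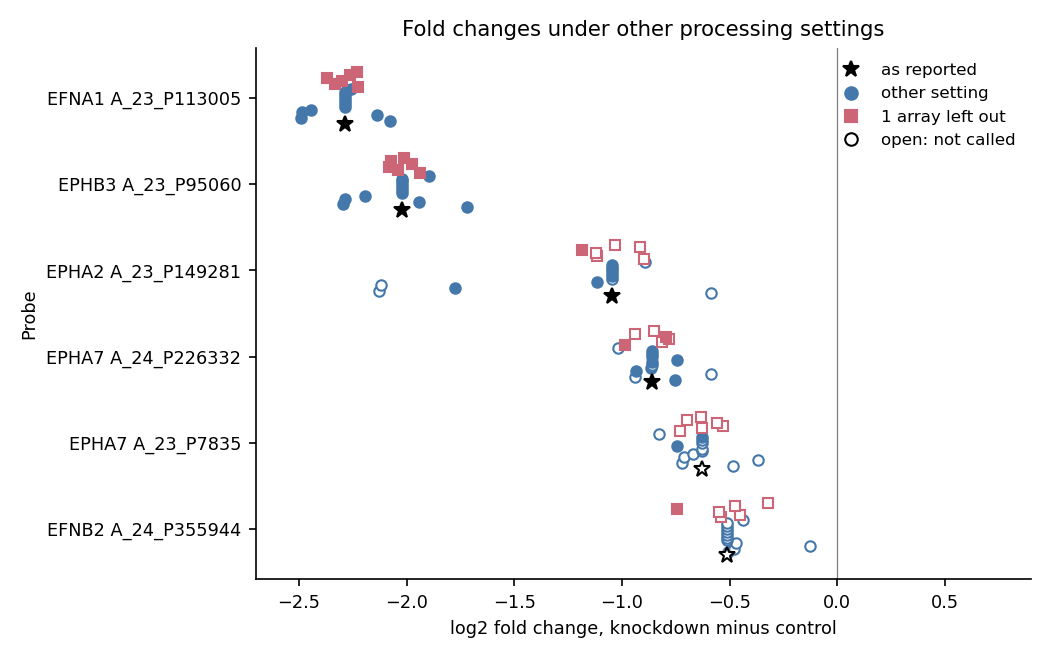
Log2 fold change, knockdown minus control (x axis), of 6 probes (y axis) as reported (star), with another processing setting (circles) and with 1 array left out (squares). Filled symbols are called at an adjusted p under 0.05: EFNA1 and EPHB3 in all 18 alternatives, the EPHA7 probe A_24_P226332 in 10, EPHA2 in 8, the EPHA7 probe A_23_P7835 in 2 and EFNB2 in 1.

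Because EFNA1 and EPHB3 showed the largest decreases, the 250 bases before their annotated starts are given here, with those of EFNA4, a neighbour of EFNA1 that was not called. Sequences are from RefSeq, build GRCh38.p14, matched by gene symbol, and capitals mark the ETS core GGAA or its reverse complement TTCC.
EFNA1, chr1:155127626-155127875, + strand: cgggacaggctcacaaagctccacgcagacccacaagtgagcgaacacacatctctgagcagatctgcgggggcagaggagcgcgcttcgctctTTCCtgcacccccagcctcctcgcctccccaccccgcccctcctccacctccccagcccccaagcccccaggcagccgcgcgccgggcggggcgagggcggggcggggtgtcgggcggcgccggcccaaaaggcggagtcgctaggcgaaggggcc
EPHB3, chr3:184561535-184561784, + strand: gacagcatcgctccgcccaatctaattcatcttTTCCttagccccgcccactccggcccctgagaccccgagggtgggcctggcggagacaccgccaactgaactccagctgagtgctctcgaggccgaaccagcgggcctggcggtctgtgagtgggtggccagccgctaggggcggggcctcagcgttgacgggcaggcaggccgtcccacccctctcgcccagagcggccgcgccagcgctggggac
EFNA4, chr1:155063490-155063739, + strand: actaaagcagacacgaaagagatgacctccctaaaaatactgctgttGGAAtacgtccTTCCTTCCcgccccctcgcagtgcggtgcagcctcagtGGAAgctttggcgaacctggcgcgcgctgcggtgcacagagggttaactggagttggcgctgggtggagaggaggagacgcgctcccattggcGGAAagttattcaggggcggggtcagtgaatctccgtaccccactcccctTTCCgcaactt

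The fusion carries the RUNX1 DNA-binding domain and, per the study, the N-terminal part of ETV6, an ETS-family protein. ETS cores are counted here as letters only and not as sites for the fusion. Of the RUNX core, only the form TGTGGT was searched, on both strands, and the form TGCGGT, which the EFNA4 window holds, was not counted. TGTGGT was absent from all 3 windows shown, and was present in 1 of 13 windows of the 10 member genes, that of EPHB6. Over 35116 promoter windows of the same length, 11.0% held it. The ETS core had 1 match in EFNA1, 1 in EPHB3 and 6 in EFNA4, and 10 of 13 member windows held it, beside 92.7% of all windows. EPHB2 and EPHA7 had more than 1 window each, and those of EPHB2 nearly coincide and held no ETS core. The share of G and C was 73.2% for EFNA1, 70.0% for EPHB3 and 58.4% for EFNA4, against a median of 58.0% over all windows, and it ran from 48.0% for EPHB6 to 84.8% for EPHB2 among the member windows. A match describes letters within these windows, and nothing was measured of binding there.

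Neighbouring genes were examined to see whether the decreases extended along the chromosome. They were the 4 protein-coding genes on either side in RefSeq order, a choice made after values had been seen. Around EFNA1, 7 of 8 neighbours had retained probes, and log2 fold changes of these 10 probes ran from -0.01 to 0.46. None was called, with the largest value at ADAM15, a membrane protease (adjusted p = 0.059 for its probe A_33_P3380693). Around EPHB3, 8 probes of 6 neighbours ran from -0.20 at MAGEF1 to 0.32 at CHRD, and around EPHA7, 6 probes of 4 neighbours ran from -0.07 to 0.51. The value of 0.51 was that of MAP3K7, a kinase gene (adjusted p = 0.0807). No neighbour probe was called in these windows, beside 1.74% of all retained probes, so that few calls or none would be found at the share of the whole array.

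**Figure D5:**
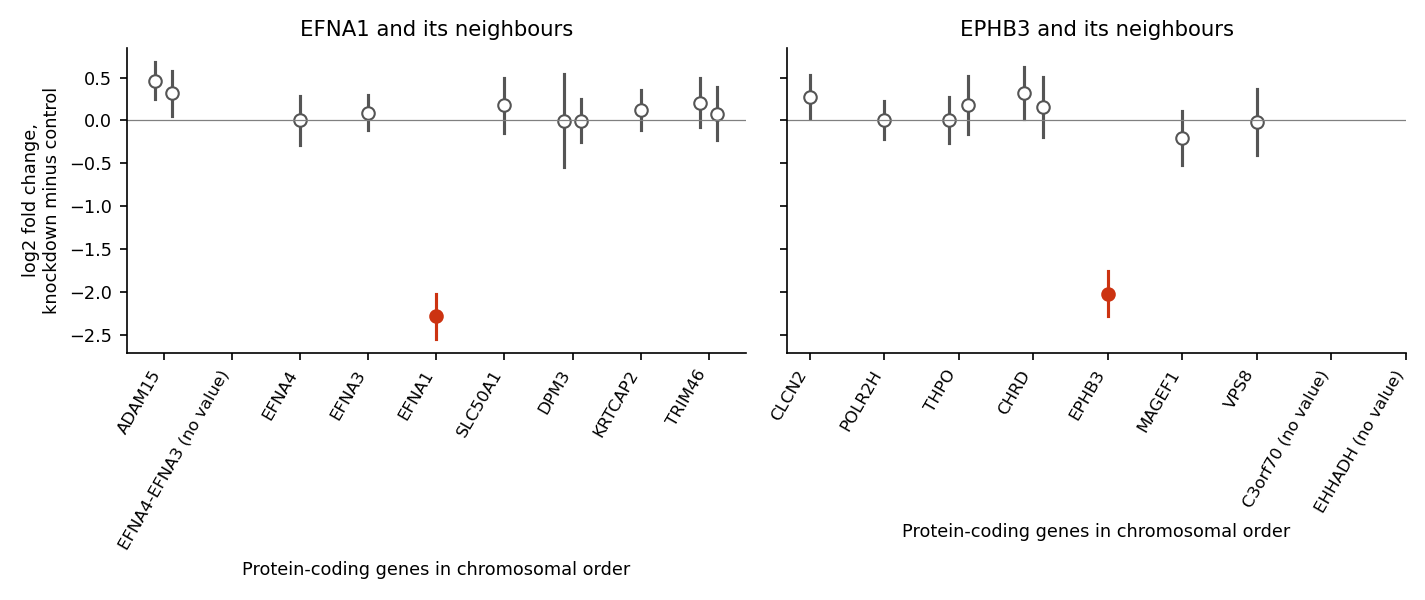
Log2 fold change, knockdown minus control, with 95% confidence intervals from limma (y axis) for EFNA1 (left) and EPHB3 (right) and the 4 protein-coding genes on either side in chromosomal order (x axis), 1 symbol per retained probe. The red symbols at -2.29 and -2.02 are called, and the neighbours, from -0.20 to 0.46, are not.

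The signalling partners of ephrins and Eph receptors were then counted. Of 67 probes for 45 partner genes, 60 were retained and limma called 0 at an adjusted p under 0.05. At an unadjusted p under 0.05 there were 9 (15.0%), beside 12.5% of all retained probes. The forward group, downstream of the receptors, had 42 retained probes with a median log2 fold change of -0.03. The reverse group, scaffolds and regulators downstream of B-type ephrins, had 10 with a median of 0.01. The shedding and cleavage group had 8, all with values below 0, where 50.2% of all retained probes lay, with a median of -0.049. Only PSEN2 had no overlap between the groups, 1 of 8, beside 18.9% of all retained probes.

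Of the partners, PSEN2, VAV3 and KALRN had the largest differences. PSEN2 encodes presenilin 2, a catalytic subunit of the gamma-secretase that cleaves ephrin-B and Eph stubs in the membrane. Its probe A_23_P103398 read 9.20, 8.63 and 8.79 in control and 8.46, 7.61 and 8.32 in knockdown, without overlap (log2 fold change -0.75, SE 0.24, limma adjusted p = 0.232). With the replicate number as a block it was called (adjusted p = 0.0300), as were 3.78% of all retained probes.

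VAV3, an exchange factor that binds active Eph receptors, read 13.30, 13.23 and 13.04 in control and 12.59, 12.63 and 12.76 in knockdown. Its groups did not overlap, but the difference of -0.53 (SE 0.11) was not called (limma adjusted p = 0.0614). KALRN, an exchange factor acting downstream of EphB receptors in neurons, gave -0.48 with overlapping groups (adjusted p = 0.335).

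Finally, genes with a pattern like that of EFNA1, the member with the largest difference, were sought among 13620 gene symbols. Over the 6 arrays the highest Pearson's r were those of CTSL, ATP6V0A4, EEF1AKMT2, NRP1 and MECOM, from 0.998 to 1.000. Their log2 fold changes ran from -2.77 for ATP6V0A4 to -0.44 for EEF1AKMT2. The 6 arrays fall into the 2 groups, so r mostly follows the difference between groups, and 42 symbols had r over 0.99, EPHB3 among them with 0.992.

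Ephrins and Eph receptors are also made by other cell types, whose markers were therefore listed. Of the T-cell, myeloid, stromal and epithelial markers, 0 of 10 retained probes were called by limma, and 1 of the 10 had an unadjusted p under 0.05, beside 1.74% and 12.5% of all retained probes. On all 6 arrays, 1 of 5 T-cell, 2 of 5 stromal and 2 of 5 epithelial marker genes were well above background. So were 2 of the 4 myeloid marker genes with a probe. Of 5 endothelial marker genes, 2 were retained, PECAM1 and CDH5. PECAM1, an adhesion molecule that leukocytes also carry, was called lower with probes A_23_P252471 and A_33_P3405213, at log2 fold changes of -1.14 and -1.13. Its other probe, A_33_P3229402, was called too but passed the filter through the control group, with the scanner flag for signal well above background on 3 control arrays and 0 knockdown arrays. CDH5 gave 0.02, while KDR carried that flag on 0 arrays, TEK on 1 and VWF on 5 without passing the filter. The list's summed level, as log2, was 9.56 to 9.79 in control and 8.85 to 9.14 in knockdown, with PECAM1 the only gene of the list that was called, and its part in the values of EFNA1, EPHB3 and EPHA7 was not tested.

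Position on the slide differed between the groups as well, as control replicates 1 and 2 lay in slide row 1 and the other 4 arrays in row 2. Within row 2, the 3 knockdown arrays differed from control replicate 3 by -2.37 to -2.10 for EFNA1. For EPHB3 the differences were -1.99 to -1.79, and for EPHA7 probe A_24_P226332 they were -1.15 to -0.87. EFNB1 ranged from -0.18 to 0.66 within that row. In that row the control is a single array, so these differences have no replicate check.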

How the data were processed

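Total RNA of REH cells was labelled with Cy3 per the labels, on custom Agilent arrays with 62976 spots, 308 of them negative controls. All 6 arrays shared 1 slide and 1 scan time. Per the file headers, spots were extracted with Agilent Feature Extraction 10.7.1.1. Scanner files deposited by the authors hold raw median and processed intensity values per spot, and other values, namely flags for outliers, saturation and signal well above background. A table of log2 values after normalization was deposited too, with 27869 probes, whose centring and background step are not given in full in the sources used here. They correlated with the values used here at r from 0.99905 to 0.99967 per array.

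Methods named by the study are variance stabilization (VSN), a background filter and limma. The VSN model was written anew and fitted to raw median intensity with 0.9 of the squares kept, giving a generalised log2 scale that understates changes of dim probes. Spots with outlier flags were left out, 0 spots were saturated, and spots of a probe were averaged. Probes over 1.1 times the 0.95 quantile of the normalized negative controls on 60% of the arrays of a group (2 of 3) were retained, 27145 of which are in the deposited table. That reading of the filter was chosen because of this match, and the reading on raw intensity was added as an alternative after seeing the data.

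Knockdown was tested against control in limma 3.58.1 under R 4.3.3 (lmFit, eBayes, two-sided, no block), with Benjamini-Hochberg adjustment over all 27490 retained probes. The fit was tested on simulated data. For a single probe, exact permutation of 3 and 3 arrays cannot go below p = 0.1. Same-numbered control and knockdown arrays deviated together (r = 0.426, 0.287 and 0.204), so the replicate number was also fitted as a block. The pairing comes from these values alone, and replicates 2 and 3 also deviated together across numbers (r = 0.187 and 0.170), whereas replicate 1 against either gave r from -0.331 to -0.264. The number of arrays limits the precision. Symbols came from a RefSeq table through transcript accessions and were found for 25728 catalogue probes (75.4%). Promoters came from RefSeq by symbol. Named were all members, other family genes with a called probe, called partners and the 3 uncalled partners with the largest difference, ETV6 and RUNX1, and the 5 genes most like the member with the largest difference. Other family genes, neighbours and cell type markers were named after their values were seen. The members and gene lists were chosen with earlier results of these data known. Alternatives were other normalizations, filters, tests, the block, the slide row and leaving out each array. Values of some partner genes are not reported here. No column of values was left unassigned.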

Additional observations from a re-analysis of the deposited data

How the results depend on the processing

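The EFNA1 and EPHB3 calls held in each of the 18 alternatives, with log2 fold changes of -2.49 to -2.08 and -2.29 to -1.72. Of all retained probes, 478 were called, against 909 with spike-in scaling, 234 with the VSN model on the processed signal, 223 with no filter on dim probes, 227 with the slide row as a term and 1038 with the replicate block. Leaving out single arrays gave 191 (without control replicate 2) to 547 (without knockdown replicate 1), with 283 without control replicate 1, 258 without control replicate 3, 214 without knockdown replicate 2 and 205 without knockdown replicate 3. Of the family, 4 probes were called, against 2 with 75th percentile scaling, with no filter and with the slide row, and 2 to 5 with single arrays left out. It was 2 without control replicate 2 or 3 and without knockdown replicate 2 or 3. The replicate block gave 5 family calls, the added one being EPHA7 probe A_23_P7835, and changed no other member call.

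The ligand median was 0.41 and the receptor median 0.26 under spike-in scaling, where the median of all probes was 0.39. Relative to that shift, EFNA1 was at -2.53 and EPHB3 at -2.33. With single arrays left out, the ligand median ran from -0.26 to 0.081 and the ligand minus receptor difference from -0.048 to 0.22, both lowest without knockdown replicate 1. The reported difference of 0.15 was 0.030 in the deposited table, 0.037 with no filter and 0.072 with probes of a gene averaged. For the partners 1 probe in place of 0 was called with normexp and quantile normalization, spike-in scaling, intensity trend and robust prior, or the replicate block. ETV6 was called in 2 of 18 alternatives. EFNA2, EFNB3, EFNA3, EPHA2 and EPHB2 were the dimmest retained family probes, where the signal over background limits the size of a difference that can be measured. EFNA3 moved from 0.09 to 0.27 with 75th percentile scaling and 0.28 with the VSN model on the processed signal, and was called in neither.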

Other observations

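RUNX1, the other partner of the fusion, was covered by 5 probes with log2 fold changes from -0.26 to 0.03, none of them called by limma (adjusted p from 0.512 to 0.943), and 0 of the 5 had an unadjusted p under 0.05. They overlapped between control and knockdown in each case. How much of their signal came from the fusion transcript was not analysed here.

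Among the custom long non-coding RNA probes that the study's lists name, 3 were named after a neighbouring Eph gene. The probe of lnc-EPHB4-1 was well above background on all 6 arrays and read 8.73, 7.79 and 7.93 in control and 7.65, 7.91 and 8.11 in knockdown. Control replicate 1 stood apart from the other 5, and the difference of -0.26 was not called (limma adjusted p = 0.715). The probes of lnc-EPHA7-2 and lnc-EPHA7-3 were not well above background on any array.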
